A study of Mus musculus with 8 samples.

Results

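The 36 genes described here are the heat shock and endoplasmic reticulum (ER) stress chaperones of mouse muscle and the regulators that govern them. They were chosen by name, as cytosolic, small and mitochondrial heat shock genes and genes of the unfolded protein response, and all 36 were found among the 23008 mouse genes of the table. RNA was sequenced from gastrocnemius, a calf muscle, of wild-type C57BL/6J mice, in 8 libraries. Every mouse had received GNDM, the construct of the study, packaged in AAV9 and injected into the tail vein; 4 libraries came from mice given the guide m31, which targets Lama1, and 4 from mice whose guide was a non-targeting control. Tissue was taken 11 weeks after injection, and the age at injection is given as 7 weeks in one label and as 7 to 12 weeks in another. The controls therefore carry the virus, the construct and a guide as well, and no uninjected muscle is part of the comparison. The table also lists construct entries, among them CK8, the name of a promoter active in muscle; the labels name neither the promoter that drives GNDM nor the dose, and the mice are not a disease model. The labels do not say that each library is a separate animal, so the p-values measure the spread between these libraries, which may be technical in part.

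Heat shock proteins bind unfolded proteins and use ATP, or hold them without it, until they refold or are degraded. In the cytosol the transcription factor HSF1 drives their genes through heat shock elements. In the ER, the sensors ATF6, IRE1 (gene Ern1) and PERK (gene Eif2ak3) respond to unfolded proteins and raise chaperones such as BiP (gene Hspa5) through ER stress response elements, while PERK acts through ATF4. Skeletal muscle fibres hold large amounts of small heat shock proteins, which protect actin filaments and the Z-disc.

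Stretches of promoter with known response elements come first, so that the values by library can be read beside them. RefSeq promoters (GRCm38.p6) were at hand for 29 of the 36 members, and the 250 bases upstream of the outermost start were searched on both strands. The ER stress response element, searched as CCAAT and CCACG with 9 bases between, lay in 6 of the 11 promoters matched for ER folding and degradation, of Hspa5, Hsp90b1, Calr, Pdia6, Creld2 and Dnajc3, and in 0.122% of 27025 promoters of all genes. Capitals mark the fixed letters of a match, the element or its reverse complement, and each line runs 5′ to 3′ on the gene's strand.
Hspa5, chr2:34772020-34772049, plus strand: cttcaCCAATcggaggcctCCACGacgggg
Hsp90b1, chr10:86705528-86705661, minus strand, with 2 matches: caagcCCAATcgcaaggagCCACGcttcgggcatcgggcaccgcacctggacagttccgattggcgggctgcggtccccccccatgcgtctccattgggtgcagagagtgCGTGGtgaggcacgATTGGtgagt
Calr, chr8:84847067-84847101, minus strand: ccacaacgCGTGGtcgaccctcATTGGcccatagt
Pdia6, chr12:17266483-17266517, plus strand: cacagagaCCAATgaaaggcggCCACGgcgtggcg
Creld2, chr15:88819512-88819546, plus strand: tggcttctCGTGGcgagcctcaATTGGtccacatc
Dnajc3, chr14:118937819-118937853, plus strand: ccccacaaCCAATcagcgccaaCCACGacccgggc

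The stretch of Hspa5 lies in the first exon of a longer GENCODE transcript. A second form of the element, ERSE-II, searched as ATTGG and CCACG with 1 base between, was found in 1 of the 11 ER promoters, that of Herpud1, and in 0.0333% of all promoters. The amino acid response element, through which ATF4 acts, searched as TGATGNAA, was found in Herpud1 and Chac1 and in 3.53% of all promoters. The UPRE, searched as TGACGTGG, was found in none of the 29 promoters and in 0.496% of all. Herpud1 and Chac1 are shown because their values by library, given further on, did not follow those of the genes above. Whether the elements bear on those values was not tested.
Herpud1, chr8:94386312-94386390, plus strand: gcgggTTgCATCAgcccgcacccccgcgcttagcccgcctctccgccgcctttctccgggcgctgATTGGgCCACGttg
Chac1, chr2:119351037-119351068, plus strand: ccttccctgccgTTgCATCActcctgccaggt

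Heat shock elements were searched as GAANNTTC, the inverted pair, found in 5 of the 29 member promoters (Dnaja1, Hspa1a, Hspa1b, Hspb1 and Hspe1) and in 6.79% of all. Runs of 3 units, in which a further GAA follows that pair, or a TTC and 2 bases precede GAANNTTC, overlap the pair. These 2 forms are reverse complements, so a search of both strands finds the same sites for each. Among the member promoters they were found in Hspe1 alone, and in 0.403% of all promoters. The stretches of Hspa1a and Hspa1b are identical here, and over the whole 250 bases the pair shares 247. The stretch of Hspe1, which encodes the mitochondrial cochaperonin, lies inside the first exon of a transcript of its neighbour Hspd1, which runs the other way.
Hspa1a, chr17:34972232-34972281, minus strand: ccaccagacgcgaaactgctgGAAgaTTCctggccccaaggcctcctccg
Hspa1b, chr17:34959314-34959363, minus strand: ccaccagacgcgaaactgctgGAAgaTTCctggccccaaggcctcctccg
Hspb1, chr5:135887797-135887834, plus strand: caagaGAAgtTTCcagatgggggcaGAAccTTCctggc
Hspe1, chr1:55088053-55088082, plus strand: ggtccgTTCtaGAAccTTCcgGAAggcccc

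The labels were first checked by the gene that m31 targets. In m31 replicates 1 to 4, Lama1 had 209, 295, 273 and 86.5 normalised reads, and in control replicates 1 to 4 it had 4.18, 0, 2.25 and 0, where 0 reads allow up to 2.86 in replicate 2 and 4.0 in replicate 4 (3 reads, counting error only). Normalised reads are reads per gene divided by 1 factor per library, set by the authors. Reads in genes came to 34142447 to 37792459 with m31 and to 25157486 to 39210248 with the control guide; control replicates 3 and 4 were the shallowest, with 26188069 and 25157486. Markers of muscle fibres (7 of 7 in the table) summed to 4107702 to 4800197 normalised reads with m31 and to 3881902 to 5342689 with the control guide.

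No member of the 36 passed the test between guides. Differences are m31 minus control on the log2(normalised reads + 1) scale, tested with limma over 15960 genes, and a call is an adjusted p under 0.05. All 36 members passed the filter on low values (a mean of at least 10), so none was left out, and their smallest adjusted p was 0.669. Called genes were 0.00627% of all tested, that is Lama1 alone. At an unadjusted p under 0.05 there were 2 members, both with positive estimates, against 6.79% of all genes tested (3.76% with positive and 3.03% with negative estimates). For no member did the guides separate all libraries, against 3.85% of all genes tested (1.84% higher and 2.02% lower with m31). The estimates of the members split into 19 positive and 17 negative, with a median of 0.02 beside 0.01 over all genes tested. On the recovered reads, edgeR and DESeq2 called 0 members each, with 2 at an unadjusted p under 0.05 by either tool; they called 0.00618% and 0.164% of all genes, and 7.02% and 5.38% had an unadjusted p under 0.05.

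**Figure D1:**
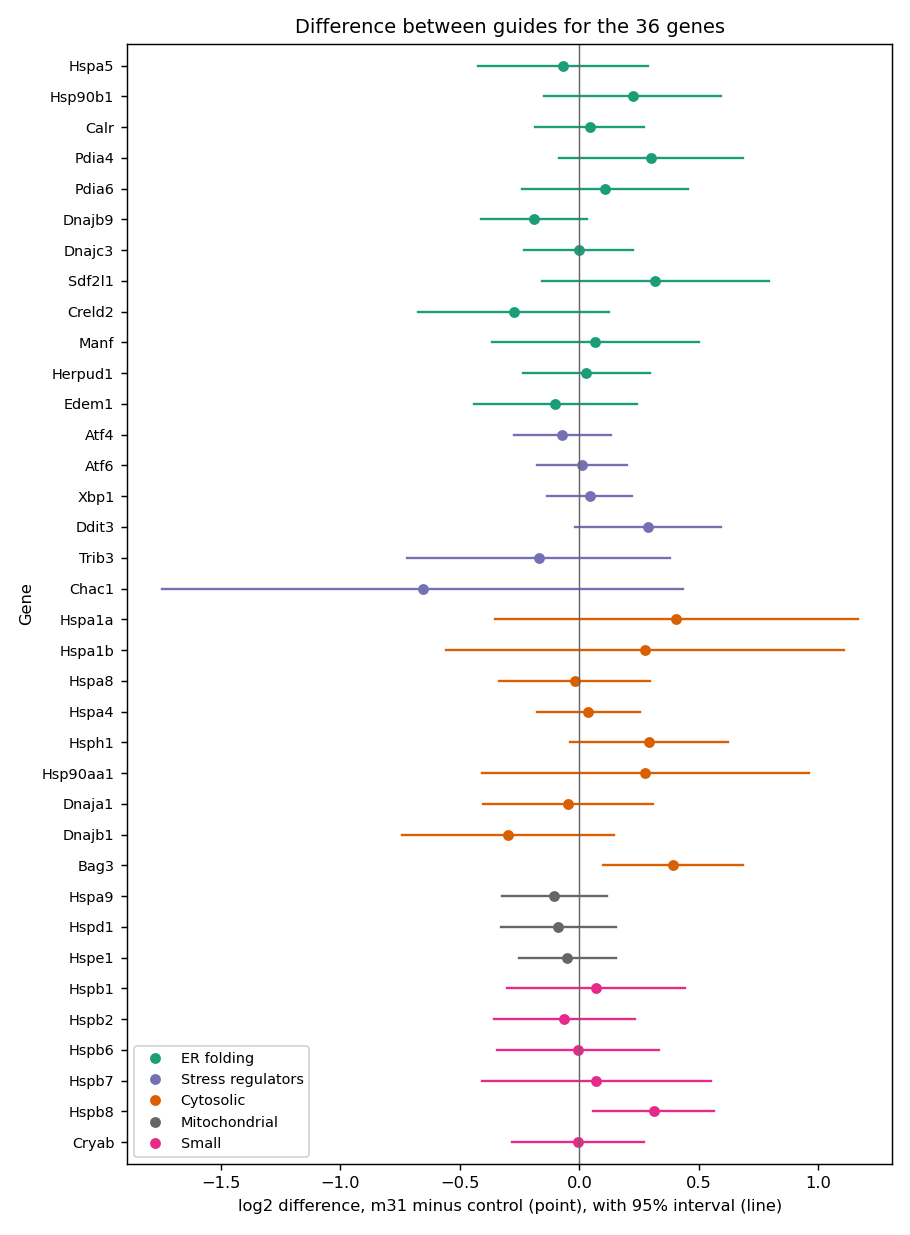
Log2 difference (m31 minus control, horizontal axis) of the 36 genes, with its 95% interval as a line and 1 colour per class. The intervals of Bag3 and Hspb8 lie above 0, at 0.10 to 0.69 and 0.06 to 0.56, and neither gene passed after adjustment over all genes.

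Of the 36 members, 2 had an unadjusted p under 0.05, Bag3 and Hspb8, which is no larger a share than the 6.79% of all genes tested. Bag3 is a cochaperone that joins the small heat shock protein Hspb8 to Hspa8, the constitutive cytosolic Hsp70, and with the ubiquitin ligase Stub1 directs damaged Z-disc proteins to autophagy. In m31 replicates 1 to 4, Bag3 had 5178, 5652, 6875 and 4635 normalised reads, and in control replicates 1 to 4 it had 3705, 3819, 4416 and 5024. The groups overlapped, since control replicate 4 lay above m31 replicate 4, while the other 3 m31 libraries lay above every control library. The difference was 0.39 ± 0.13 (SE), with a 95% interval from 0.10 to 0.69 and limma's adjusted p = 0.669; an exact permutation test, two-sided, had p = 0.0571 (n = 4 per group), where 0.0286 is the smallest value the 70 arrangements allow.

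For Hspb8 the m31 replicates 1 to 4 had 15389.8, 11673, 10462 and 12819 normalised reads, and the control replicates 1 to 4 had 9202, 10013, 10526 and 10502. Of the m31 libraries, replicate 3 lay within the control range, and the control libraries were close together. The difference was 0.31 ± 0.11 (SE), with an interval from 0.06 to 0.56 and limma's adjusted p = 0.703. It was 0.21 without m31 replicate 1, the highest library. The partners had estimates near 0: Hspa8 had 33479 ± 3346 against 34357 ± 6929 normalised reads (mean ± SD, n = 4 each), a difference of -0.02 with an interval from -0.34 to 0.30. Stub1, from the list of other pathway genes, had 1211 ± 143 against 1163 ± 183, a difference of 0.06. The m31 libraries with the highest Bag3 and the highest Hspb8 were not the same, replicate 3 for the first and replicate 1 for the second.

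**Figure D2:**
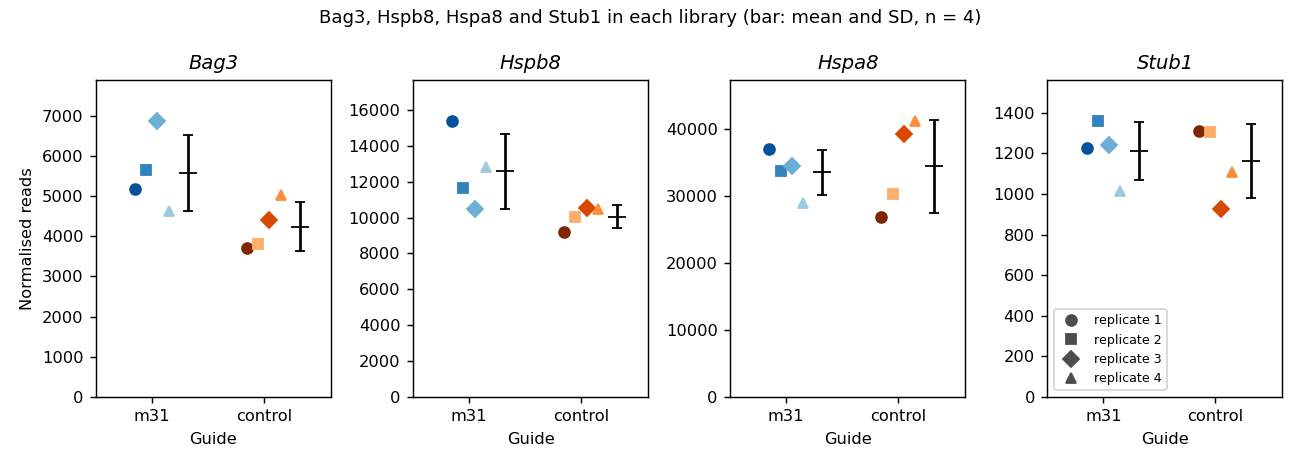
Normalised reads (vertical axis, from 0) of Bag3, Hspb8, Hspa8 and Stub1 in each library, by guide, with symbols for the replicate number and the mean ± SD of 4 libraries beside them. Bag3 and Hspb8 have higher means with m31 with overlapping groups, and Hspa8 is spread widest among the control libraries.

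Of the 7 cytosolic genes besides Bag3 and Hspa8, Hsph1, an Hsp110 that recharges Hsp70 with nucleotide, had the smallest unadjusted p (0.0785). It stood at 3725, 2859, 3362 and 2857 in the m31 libraries and at 2046, 2291, 3172 and 3071 normalised reads in the control libraries. Control replicates 1 and 2 lay below all m31 libraries, and control replicates 3 and 4 lay among them. The difference was 0.29 ± 0.15 (SE), with limma's adjusted p = 0.769.

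The genes of the inducible Hsp70, Hspa1a and Hspa1b, and of the inducible Hsp90, Hsp90aa1, varied far more between control libraries than between m31 libraries; they and the further genes given by library below were singled out after their values were seen. Hsp90aa1 stood at 942, 1067, 2693 and 2401 normalised reads in control replicates 1 to 4, and between 1645 and 2305 in the m31 libraries. The m31 libraries thus lay in the gap between control replicates 1 and 2 below and control replicates 3 and 4 above. The difference was 0.28 ± 0.31 (SE), an interval from -0.41 to 0.96; it was 0.02 without control replicate 1, 0.08 without control replicate 2, 0.53 without control replicate 3 and 0.47 without control replicate 4. Hspa1b stood at 219, 392, 1001 and 602 in the control libraries, a 4.57-fold range, and at 754, 534, 649 and 426 with m31, a 1.77-fold range. Hspa1a ranged from 204 to 719 with the control guide and from 397 to 726 with m31. Its difference was 0.40 ± 0.34 (SE), the largest positive estimate of the 36 members, with an interval from -0.35 to 1.16. It was 0.05 without control replicate 1 and 0.66 without control replicate 3.

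Hspa1a and Hspa1b cannot be counted apart with certainty: 62.3% of the 50-base stretches of Hspa1b transcripts also occur in Hspa1a, while 66.3% of those of Hspa1a occur in other genes. The same share was 47.5% for Hsp90aa1, 39.4% for Hspa8 and 20.6% for Dnaja1, mostly through processed copies. Dnaja1, a J-domain partner of Hsp70, had 1627 ± 66.0 normalised reads in the m31 group and 1728 ± 459.9 in the control group. Hspa4, another Hsp110, had a difference of 0.04 with an interval from -0.18 to 0.25. Dnajb1, which hands substrates to Hsp70, had the lowest estimate of the class at -0.30 ± 0.20 (SE), and m31 replicate 1, with 134 normalised reads, was its lowest library; without it the estimate was -0.12.

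As a class the 9 cytosolic genes had 6 positive and 3 negative estimates, a median of 0.27 beside 0.01 over all genes tested, and 0 calls. That median rested on control replicate 1: without it the median was -0.02, and without control replicate 2 it was 0.08. Control replicate 1 was the lowest of all 8 libraries for 8 of the 9 genes, whereas it was lowest for 10.1% of all genes tested.

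**Figure D3:**
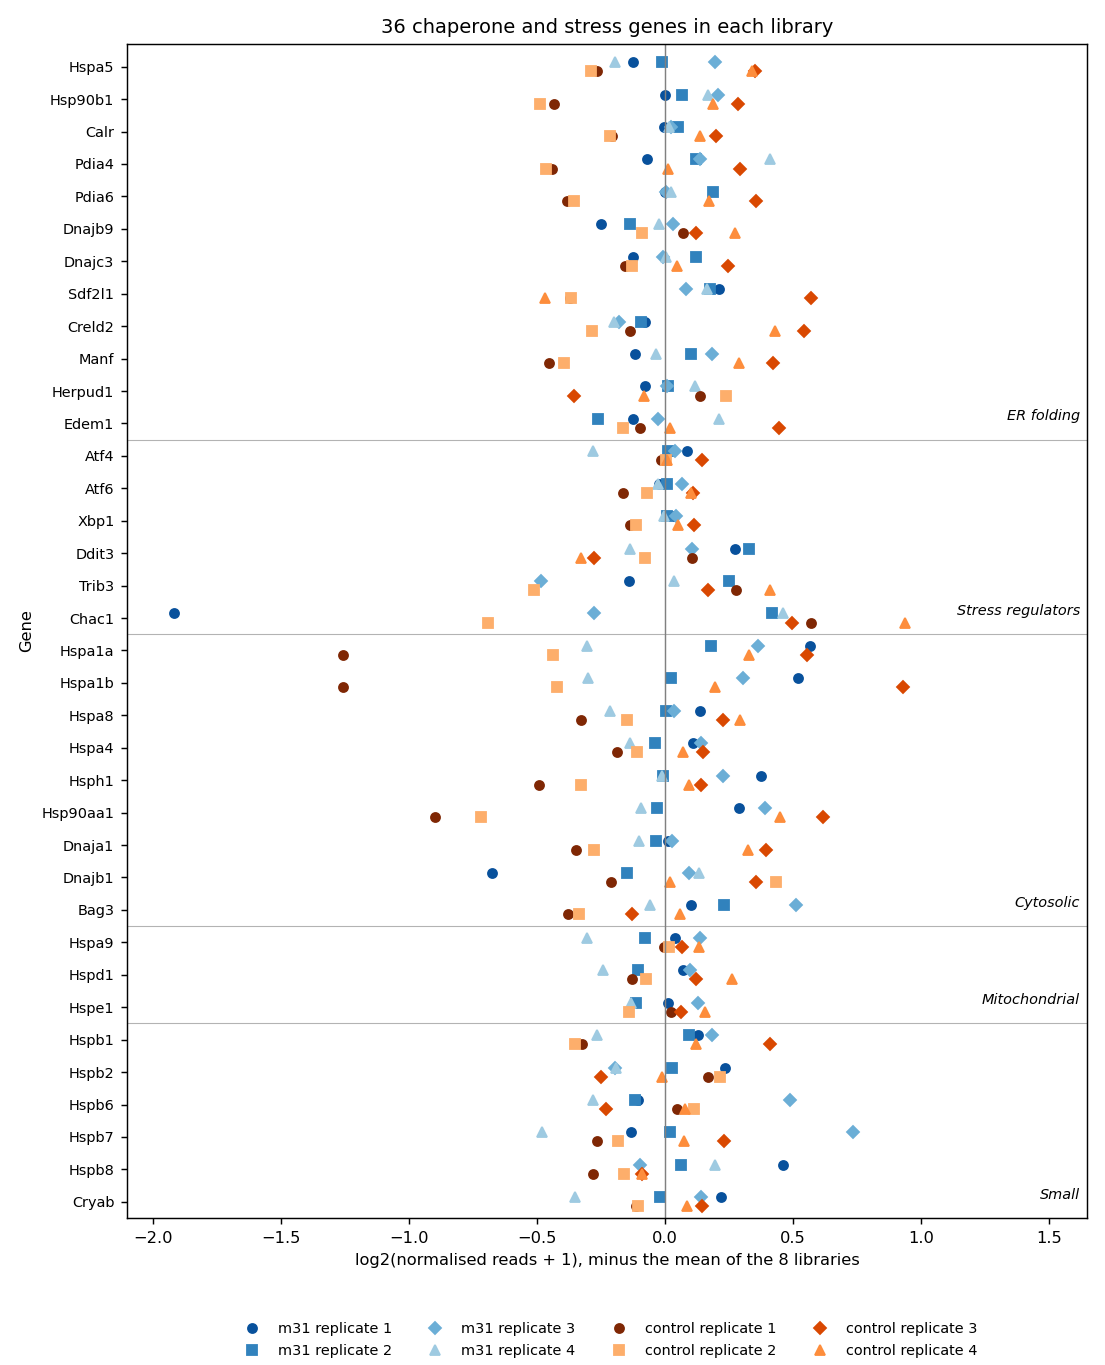
Value of each of the 36 genes in each library on the log2 scale, minus the gene's mean over the 8 libraries (horizontal axis), with m31 in blue and control in orange to brown. Control replicates 1 and 2 sit on the left for most ER and cytosolic genes, control replicate 3 on the right for most of them; for Hspa5, Calr and Manf the m31 libraries all lie between control replicates 1 and 2 and control replicates 3 and 4.

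The 12 ER genes had 7 positive and 5 negative estimates and a median of 0.04, and none passed. The sign of that median rested on single libraries: it was -0.04 without control replicate 1, -0.03 without control replicate 2 and 0.10 without control replicate 3. Hspa5, the main Hsp70 of the ER, stood at 4228, 4163, 6488 and 6435 normalised reads in control replicates 1 to 4 and at 4659.9, 5043, 5816 and 4438 with m31. All m31 libraries lay between control replicates 1 and 2 and control replicates 3 and 4. The difference was -0.07 ± 0.16 (SE), an interval from -0.42 to 0.29. Hsp90b1, the Hsp90 of the ER, stood at 1296, 1249.6, 2138 and 1997 in the control libraries against 1755 to 2023 with m31, and calreticulin (Calr), a lectin chaperone of glycoproteins, at 4087, 4065, 5417 and 5192 against 4706 to 4889.

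Within m31 the ER genes were close together. Their median SD over the 4 m31 libraries was 0.10 on the log2 scale, and over the 4 control libraries 0.36. Over all genes tested these medians were 0.18 and 0.22. All genes tested means any with a mean of at least 10, not genes matched to the ER genes in level. The SD was larger among control libraries for 12 of the 12 ER genes, against 61.8% of all genes tested. For the 38 further genes of the unfolded protein response and ER folding, described at the end, the median SDs were 0.13 and 0.19, and the control SD was larger for 73.7%. Leaving out any 1 library left the count of the 12 ER genes at 11 or 12, and without m31 replicate 4 and control replicate 3 it was 9 of 12, beside 55.7% of all genes. Without control replicate 3 the median SD of the ER genes over control libraries was 0.24. No test was run on this difference in spread, which was noticed in these libraries.

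**Figure D4:**
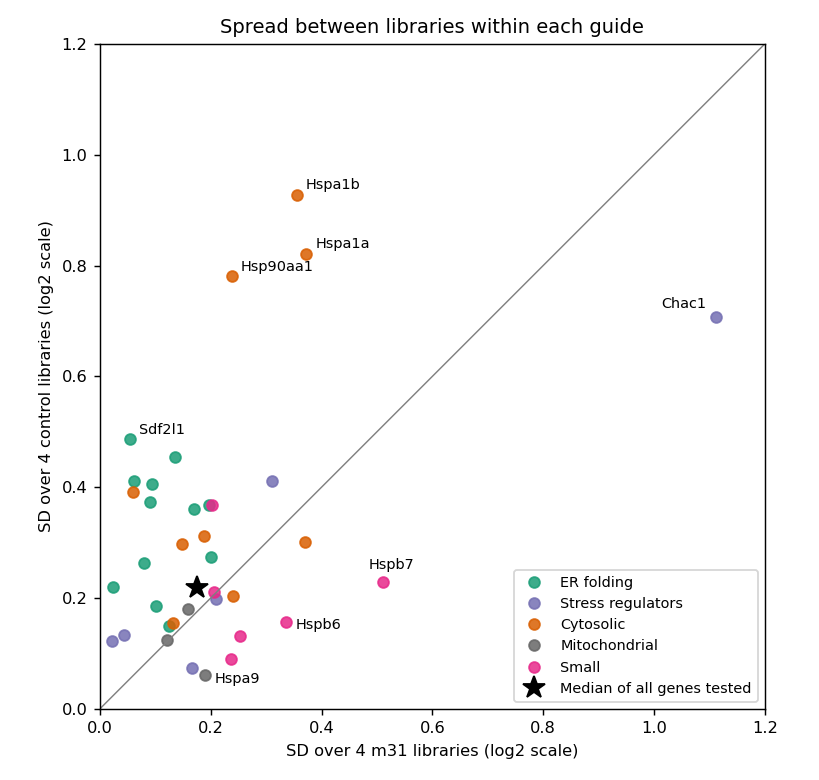
SD over the 4 m31 libraries (horizontal axis) and over the 4 control libraries (vertical axis) of each gene on the log2 scale, with equal SD on the line and the median of all genes tested as a star. The ER genes all lie above the line, Hspa1a, Hspa1b and Hsp90aa1 lie farthest above it, and Chac1, Hspb7 and Hspb6 lie below it.

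Control replicate 3 was the highest of the 8 libraries for 9 of the 12 ER genes, whereas it was highest for 16.5% of all genes tested. With values divided by each library's total instead, the count was 10, beside 28.3% of all genes, and with values recentred on library medians it was 8, beside 16.5%. Sdf2l1, a component of the ER chaperone complex, stood at 159.6 normalised reads in control replicate 3, at 77.3 to 83.0 in the other control libraries and at 114 to 124 with m31. Creld2 and Manf, which encode ER stress proteins that can be secreted, had control values of 188, 169.8, 302 and 279.8 and of 189, 197, 348 and 317. Their m31 values lay within 180.3 to 197 for Creld2 and 239 to 295 for Manf. The highest and lowest estimates of the ER class were those of Sdf2l1, 0.32 ± 0.22 (SE), and Creld2, -0.27 ± 0.18 (SE). Without control replicate 3 they were 0.56 and -0.14. The protein disulfide isomerase Pdia6 stood at 1089, 1108, 1815 and 1598 in the control libraries and at 1418 to 1615 with m31.

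Control replicate 3 also differed in ways outside these genes. It held the most construct RNA, with 37989 normalised reads of GNDM against 6157 to 24487 in the other 7 libraries, and control replicate 4 held 9802. Macrophage markers (9 of 9 in the table, none at 0 throughout) summed to 6749.9 normalised reads in control replicate 3 and to 2871 to 3293 in the other control libraries, and with m31 to 3949 to 9544, the last in replicate 4. Fibroblast and matrix markers (10 of 10 in the table) summed to 66347 in control replicate 3, to 35694 to 45441 in the other control libraries and, with m31, to 47466 to 208688, the last again in replicate 4. Immediate early genes (7 of 7 in the table), which follow sample handling, summed to 2404 to 3867 with the control guide. The sum was highest in control replicate 2, and Jun made up most of the sum in every library. Control replicate 3 was the highest of all 8 libraries for Fos (168.6), Egr1 (259.6) and Atf3 (301). Atf3 is also among the further genes of the unfolded protein response described at the end. Fosb, Jun, Junb and Ier2 were highest in other libraries. Control replicates 3 and 4 were both the shallowest libraries and those with the highest Hspa5. The part of these measures in the spread of the chaperone genes was not tested. In whole muscle, fewer cells of a type and less RNA per cell cannot be told apart.

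**Figure D5:**
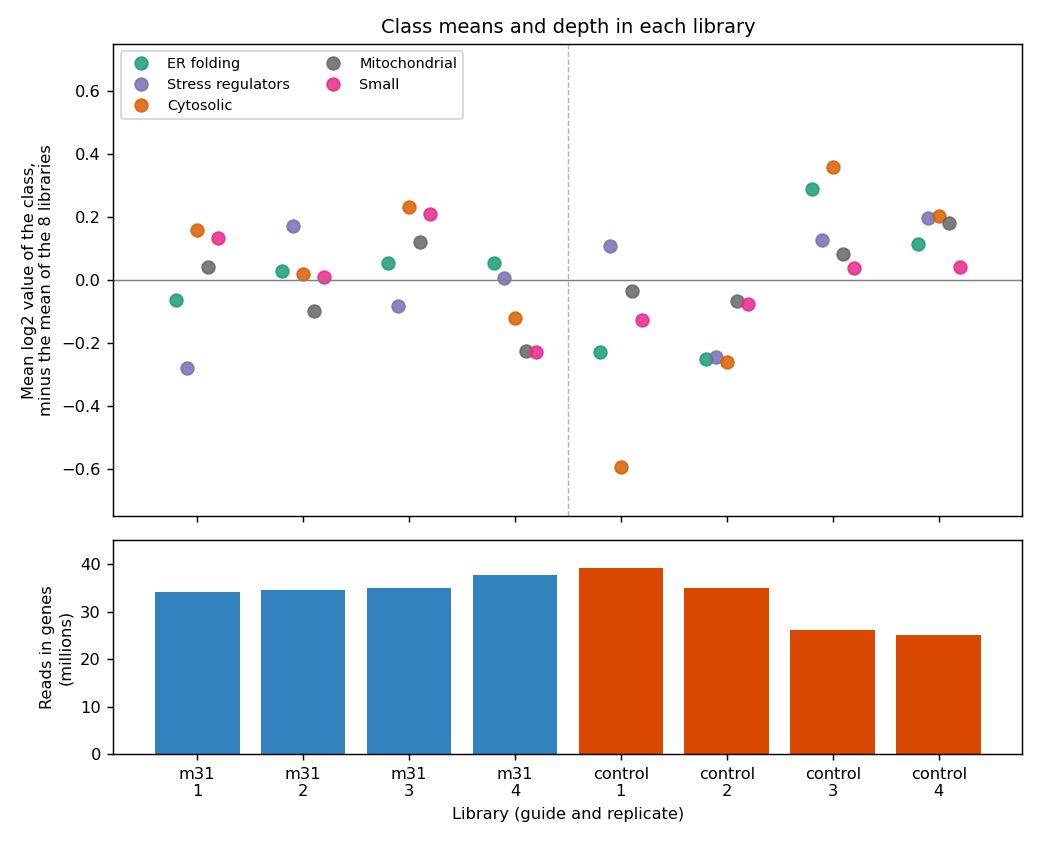
Upper panel, mean log2 value of the genes of each class in each library, minus the mean of the 8 libraries; lower panel, reads in genes as labelled on the axis. The cytosolic class runs from -0.59 in control replicate 1 to 0.36 in control replicate 3 and the ER class from -0.25 in control replicate 2 to 0.29 in control replicate 3.

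The 2 ER genes with the smallest unadjusted p were Dnajb9 and Pdia4, and their estimates had opposite signs. Dnajb9, a J-domain protein that restrains IRE1, stood at 747, 808, 908 and 874 normalised reads with m31 and at 934, 835, 968 and 1074 with the control guide. The groups overlapped in the range of control replicate 2, and the difference was -0.19 ± 0.10 (SE), with limma's adjusted p = 0.774. Pdia4, a disulfide isomerase, stood at 418, 476, 482 and 583 with m31 and at 322, 318, 537 and 442 with the control guide. The difference was 0.30 ± 0.17 (SE), with limma's adjusted p = 0.789; m31 replicate 4 was its highest library.

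Herpud1, which serves ER-associated degradation, had another order of libraries. Its promoter held a match to ERSE-II and none to the element shown for Hspa5. Neither form was matched for Sdf2l1, Manf or Edem1, whose highest library was control replicate 3. Promoters were at hand for 11 of the 12 ER genes, and a link between element and order was not tested. Herpud1 stood at 4120.4, 4418, 2928 and 3535 normalised reads in control replicates 1 to 4. Control replicate 3 was thus the lowest of all 8 libraries and control replicate 2 the highest. The m31 libraries lay at 3542 to 4055, and the difference was 0.03 with an interval from -0.24 to 0.29. Dnajc3, a cochaperone that holds unfolded proteins, had a difference of -0.00 (interval -0.23 to 0.22). Edem1, which sends misfolded glycoproteins to degradation, had a difference of -0.10 (interval -0.44 to 0.24).

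Of the 6 regulators, the transcription factor genes Atf4, Atf6 and Xbp1 had estimates near 0. Atf4 had a difference of -0.07 (interval -0.28 to 0.13), Atf6 one of 0.01 (-0.18 to 0.20) and Xbp1 one of 0.04 (-0.13 to 0.22). Splicing of Xbp1 and cleavage of ATF6, by which both are activated, do not show in counts per gene. Xbp1 stood between 1447 and 1496 normalised reads in the 4 m31 libraries and at 1321, 1341, 1569 and 1503 in the control libraries. The m31 libraries thus lay again between control replicates 1 and 2 and control replicates 3 and 4, on a smaller scale than for Hspa5.

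Ddit3, which encodes the proapoptotic factor CHOP, had the smallest unadjusted p of the regulators (0.0641). It stood at 318, 329.7, 283 and 239 normalised reads with m31 and at 283, 249, 217 and 209 with the control guide. Control replicates 3 and 4, the highest for Hspa5, were the lowest for Ddit3. The difference was 0.29 ± 0.14 (SE), an interval from -0.02 to 0.59, with limma's adjusted p = 0.752.

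Chac1, an ATF4 target that degrades glutathione, had the widest spread of all members. It stood at 404, 2039.6, 1259 and 2102 normalised reads with m31 and at 2266, 943, 2151 and 2925 with the control guide, a 7.25-fold range over the 8 libraries. The lowest library, m31 replicate 1, and control replicate 2 set the spread of their groups. The difference was -0.66 ± 0.49 (SE), an interval from -1.75 to 0.44, with limma's adjusted p = 0.840. Leaving out 1 library at a time gave differences from -0.996 without control replicate 2 to -0.13 without m31 replicate 1. Trib3, another ATF4 target and a pseudokinase, stood at 36.1, 47.6, 28.2 and 40.9 with m31 and at 48.5, 27.7, 45.0 and 53.3 normalised reads with the control guide, a difference of -0.17 ± 0.25 (SE).

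The 3 mitochondrial genes had negative estimates with intervals that include 0. Hspa9, the mitochondrial Hsp70, stood at 12619.7, 11630.1, 13494 and 9939.7 normalised reads with m31 and at 12246, 12433, 12869 and 13456 with the control guide, a difference of -0.11 (interval -0.32 to 0.11). Hspd1, the chaperonin Hsp60, stood at 5532, 4908, 5639 and 4459 with m31 and at 4818, 5009, 5735 and 6319 with the control guide, a difference of -0.09 (interval -0.33 to 0.15). For both genes m31 replicate 4 was the lowest of the 8 libraries. Hspe1, the lid of the Hsp60 barrel, had 1316 ± 112 against 1363 ± 114 (mean ± SD, n = 4 each). Shared 50-base stretches were 42.1% for Hspd1 and 22.8% for Hspe1, and the exons of the pair overlap by 112 bases on opposite strands, so that part of their reads cannot be told apart.

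Of the 5 most abundant members per length of exon, 4 were small heat shock genes. Cryab, which encodes alphaB-crystallin, stood at 8843 normalised reads per kb of exon with the control guide, ahead of Hspa8 at 7988, Hspb6 at 7317, Hspb1 at 5452 and Hspb8 at 5159. The other small heat shock genes, Hspb7 and Hspb2, stood lower, at 2909.9 and 655. The least abundant members on this scale were Trib3 at 20.5 and Edem1 at 39.8. With m31 the first 3 were in the same order, at 8872, 7784 and 7409.8. Per kb the SDs over control libraries were 812 for Cryab, 1611 for Hspa8, 755 for Hspb6, 1421 for Hspb1 and 318 for Hspb8. Cryab and Hspa8, Hspa8 and Hspb6, and Hspb1 and Hspb8 are neighbours in this order that lie closer together than the larger SD of the pair; Hspb6 and Hspb1 lie farther apart.

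Apart from Hspb8, the small heat shock genes had estimates from -0.06 to 0.07. Hspb2, which binds the myotonic dystrophy kinase, had the next smallest unadjusted p and stood at 625, 540.0, 463 and 464 normalised reads with m31 and at 597, 616, 446 and 526 with the control guide. The difference was -0.06 (interval -0.36 to 0.23). Its exons overlap those of Cryab by 252 bases on the opposite strand, so reads there cannot be assigned with certainty. Cryab had a difference of -0.01 (interval -0.28 to 0.27). Hspb1, the Hsp25 of mouse, had 5799.8 ± 764 against 5621 ± 1465 normalised reads, with 4486 and 4409 in control replicates 1 and 2 and 7477 and 6112 in control replicates 3 and 4. Of its 50-base stretches, 50.1% occur in other genes, mainly a pseudogene.

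Hspb6 and Hspb7, small heat shock genes of striated muscle, were spread by m31 replicate 3. Hspb7 stood at 7467, 8289.5, 13619 and 5864 normalised reads with m31 and at 6812, 7206, 9598 and 8615 with the control guide. Hspb6 stood at 15539.8, 15419, 23416 and 13766 with m31 and at 17288, 18103, 14266 and 17631 with the control guide. For both genes m31 replicate 3 was the highest and m31 replicate 4 the lowest of all libraries. Slow fibre markers (9 of 9 in the table) followed the same order among m31 libraries at both ends, with sums of 30125, 32338, 41046 and 19433 normalised reads in replicates 1 to 4. With the control guide they summed to 42930, 43262, 34084 and 39457. Control replicate 3, the lowest of these sums, was the lowest control library for Hspb6 but the highest for Hspb7. Between guides, 0 of the 9 slow fibre markers had a positive estimate, with a median of -0.47 and 0 calls. The part of the slow fibre markers in the values of Hspb6 and Hspb7 was not tested.

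Other genes of these pathways were read from 3 further lists. Of 40 heat shock genes, all tested, 20 had positive and 20 negative estimates, with a median of 0.00 and 0 calls. HSF1 itself (gene Hsf1) had 1707 ± 135 normalised reads in the m31 group and 1527 ± 154 in the control group, a difference of 0.16 ± 0.10 (SE). The constitutive Hsp90 gene Hsp90ab1 had a difference of 0.04, the Hsp70-Hsp90 adaptor Stip1 one of 0.08 and the myosin chaperone Unc45b one of 0.16. Serpinh1, the ER chaperone of collagen, had 3304 ± 674 against 2379 ± 851, a difference of 0.52 ± 0.22 (SE; limma's adjusted p = 0.720). It was highest in m31 replicate 4, at 4306, the library with the highest matrix markers, and in control replicate 3, at 3506, within the other group. In this list 2 genes had every m31 value below every control value, against 2.02% of all genes tested; they were Dnajc7 (-0.25) and Cct5 (-0.17), and neither passed.

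Of 42 further genes of the unfolded protein response and ER folding, 38 were tested, with 23 positive and 15 negative estimates, a median of 0.03 and 0 calls. The sensor genes were Ern1, with a difference of 0.00 ± 0.14, and Eif2ak3, with 0.32 ± 0.13 (SE; limma's adjusted p = 0.720). Ppp1r15a, whose product reverses the block of translation set by PERK, had 0.25 ± 0.11 (SE; limma's adjusted p = 0.724). The ATF4 target Asns had -0.06 ± 0.22. The ER chaperone genes Hyou1, Canx, P4hb and Pdia3 had 0.06, -0.02, -0.08 and 0.31. Of 11 genes of mitochondrial chaperones and proteases, 2 had positive and 9 negative estimates, with a median of -0.06 and 0 calls; Lonp1 had 0.04 and Trap1 -0.11. One of the 11, against 2.02% of all genes tested, had every m31 value below every control value: Dnajc19, at 977 ± 42.8 against 1197 ± 93.4 normalised reads, a difference of -0.29 ± 0.08 (SE; limma's adjusted p = 0.647).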

How the data were processed

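The deposited table holds signal, reads per gene divided by 1 size factor per library by the authors. STAR and DESeq2 are named in the submitters' processing notes, with no version, as is the build GRCh38.p12, while the identifiers are mouse Ensembl genes. For the counter, strand setting, annotation and filters the sources used here give nothing. Of 11 value columns, 8 match the labels and 3 were not used; 5 construct entries stayed out of the tests. Values came out as whole reads for 100% of entries (within 0.01 read). The members and lists were chosen with earlier results of these data known.

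The design foresaw edgeR for raw counts and limma for normalised values, and the latter applied. limma 3.58.1 (R 4.3.3; intensity trend, intercept and group) was run on log2(value + 1) for the 15960 genes with a mean of at least 10, with Benjamini-Hochberg adjustment over all of them. Intervals are at the 95% level. On the recovered reads, edgeR 4.0.16 and DESeq2 1.42.0 were run as alternatives. Exact permutation tests were run over 70 arrangements. Exon lengths, overlaps and shared 50-base stretches came from GENCODE M21 (GRCm38). The test was tested on simulated data, in which genes were changed 2-fold. That is more than the estimate of any member, and smaller changes were not simulated. By rule, all 36 members and 15 other pathway genes were named, with values by library for the 2 members of each class with the smallest unadjusted p. No 2 libraries of a group agreed within sampling noise (chi-square per degree of freedom 13.0 to 52.2).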

Additional observations from a re-analysis of the deposited data

Results flagged for a closer look

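In 82 groups of 4 libraries (36 genes and 5 class means, for each guide) a library lying far from the other 3 was looked for. Of these groups 3 held such a library, which is not more than the about 1 in 20 groups that chance gives. For Pdia6 it was m31 replicate 2, with 1615 normalised reads, while the remaining m31 libraries had 1418 to 1441. For Sdf2l1, control replicate 3 had 159.6 and the remaining control libraries had 77.3 to 83.0. For Atf4, control replicate 3 again was apart with 4844, and the remaining control libraries had 4331 to 4400.0.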

How the results depend on the processing

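No member and no gene of the pathway lists was called under any of the 19 alternatives; the smallest adjusted p of a member was 0.164, with library weights. DESeq2 called 31 genes over the table and the fit without m31 replicate 4 and control replicate 3, chosen after seeing the data, called 3, against 1; leaving out 1 library gave 1 to 2. Without those 2 libraries the median of the small heat shock genes was 0.24 instead of 0.03, and without 1 library it went down to -0.032; the cause was not tested. With the replicate block, 1 gene and 0 members were called, with limma's adjusted p = 0.883 for Bag3 (0.39) and 0.885 for Hspb8 (0.31); with complete pairs the block cannot move a difference, only its error. Whether same-numbered libraries are pairs is not known. Their deviations correlated at 0.05, -0.05, -0.13 and -0.18, and so few libraries cannot decide it.

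The estimates of 18 members, of a size up to 0.27 (Hspa1b), changed sign in 63 of 683 values; the cause was not tested. With quantile normalization Dnajc3 had 0.0074, Hspb6 0.012 and Cryab 0.0083. Recentred on library medians, Herpud1 had -0.0064 and Atf6 -0.024. edgeR gave Hspb6 0.016 and Cryab 0.0028, and DESeq2 0.020 and 0.0065. With library weights Hspa5 had 0.13, Dnajc3 0.11, Herpud1 -0.091, Hspa8 0.16, Dnaja1 0.16, Hspd1 0.0050 and Cryab 0.089. Over the fits without 1 library and without those 2, the ranges were -0.18 to 0.090 for Hspa5, -0.021 to 0.12 for Calr, -0.0038 to 0.25 for Pdia6, -0.057 to 0.077 for Dnajc3, -0.073 to 0.24 for Manf, -0.12 to 0.11 for Herpud1, -0.19 to 0.031 for Edem1, -0.11 to 0.047 for Atf4, -0.041 to 0.060 for Atf6, -0.098 to 0.78 for Hspa1b, -0.13 to 0.12 for Hspa8, -0.018 to 0.15 for Hspa4, -0.17 to 0.10 for Dnaja1, -0.15 to 0.0019 for Hspd1, -0.034 to 0.32 for Hspb1, -0.17 to 0.085 for Hspb6, -0.16 to 0.33 for Hspb7 and -0.081 to 0.16 for Cryab. Every member had at least 29 reads in each library; for the lowest, such as Trib3, the share of counting error in the spread was not tested.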
